A study of Homo sapiens with 8 samples.

Results

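The cells described here are HMLE cells, an established line of immortalised human mammary epithelial cells, in which at least 3 of the 4 genes VCAN, GREM1, IL6 and MSC were detected. Of 26247 deposited cell barcodes, 19818 had at least 1000 genes detected, at most 15% of their unique molecular identifiers (UMIs, 1 per captured RNA molecule) from mitochondrial genes and at least 10000 gene UMIs. Of these 19818 cells, 144 had at least 1 UMI in 3 or more of the 4 genes and are called members. They were set against the 15639 cells in which none of the 4 genes was detected; a further 3583 cells had 1 of the genes and 452 had 2. The 4 genes came from groupings of these same cells by expression, so their levels, and those of CXCL8, which was picked with them, are given as a description without a test.

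The study placed HMLE cells in TGF-β, which induces an epithelial to mesenchymal transition (EMT), with or without pyridostatin, a small molecule that binds G-quadruplex DNA. Its 12 samples were each marked with a short barcoded oligonucleotide (SBO), mixed in equal numbers and captured on 4 channels of a droplet instrument with chemistry that reads the 5′ ends of mRNA. By SBO counts, almost all cells of libraries 1 and 2 were led by SBO01 to SBO06, and those of libraries 3 and 4 by SBO07 to SBO12. Libraries 1 and 2 are therefore read here as loads of 1 pool and libraries 3 and 4 as loads of another. The labels give 12 pooled samples for each library and name no pools. The labels tie no barcode to TGF-β, pyridostatin or a time, so every comparison below is between kinds of cells within a library, and none is between treatments. The 4 libraries are the replicates. If the pools are as read here, their p-values measure the spread between repeat loads and between pools, not between independent cultures.

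VCAN encodes versican, a large proteoglycan that binds hyaluronan in loose extracellular matrix. GREM1 encodes gremlin 1, a secreted antagonist that binds bone morphogenetic proteins (BMPs) and keeps them from their receptors. IL6 encodes interleukin 6, which signals through IL6R and the shared receptor chain IL6ST to the transcription factor STAT3, and MSC encodes musculin, a basic helix-loop-helix repressor. In EMT, epithelial cells lose junction and keratin gene expression and gain vimentin, N-cadherin and matrix genes. NF-κB, a transcription factor that responds to interleukin 1 and tumour necrosis factor, drives many cytokine genes, among them IL6 and the neutrophil-attracting CXC chemokines.

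The 4 libraries held 139331790 to 179421284 gene UMIs and 3835 to 6609 cells past the filter each. The members numbered 52, 45, 21 and 26 in libraries 1 to 4 and held 1379989, 1306939, 553720 and 974892 UMIs, against 94141387 to 134481914 UMIs in the cells with none of the 4 genes. Library 3 therefore gave the least precise member values. Libraries also shared cell barcodes: 899 of them recurred across libraries, and 1037 cells past the filter carried one of these. Among the members 14 had a cell barcode that also occurred in another library, 11 of them with the same leading SBO, and no cell barcode was held by 2 members. No doublet caller was run. A barcode was called clear where its leading SBO had at least 10 UMIs and at least 3 times those of the next, which held for 102 of the 144 members. Where leaving out the shared barcodes, or keeping clear barcodes alone, changed a statement made here, the value is given beside it.

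Among the members, all 4 genes were detected in 42 cells. GREM1, IL6 and MSC without VCAN were detected in 35, VCAN, GREM1 and MSC without IL6 in 33, VCAN, GREM1 and IL6 without MSC in 32, and VCAN, IL6 and MSC without GREM1 in 2. GREM1 was thus present in 142 of the 144 members, with 583 UMIs in all and up to 33 in a cell. IL6 had 477 UMIs in 111 members, VCAN 303 in 109 and MSC 227 in 112. Over all 19818 cells, a UMI of GREM1 was found in 10.3%, of IL6 in 10.1%, of MSC in 2.61% and of VCAN in 2.01%. GREM1 differed most between the pools, at 15.04% and 17.6% of cells in libraries 1 and 2 against 2.89% and 3.05% in libraries 3 and 4.

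Summed over the members of a library and given as UMIs per 1000000 UMIs (CPM), GREM1 was at 145, 143, 152 and 115 in libraries 1 to 4. IL6 was at 139, 105, 116 and 86.2 CPM, VCAN at 68.8, 94.1, 77.7 and 43.1 CPM, and MSC at 52.9, 54.3, 66.8 and 47.2 CPM. All 4 genes were lowest in the members of library 4, and by the rule all 4 were at 0 in the comparison cells. MSC-AS1, transcribed opposite MSC, was at 15.9, 13.01, 25.3 and 16.4 CPM in members and at 0.991, 1.09, 0.528 and 0.526 CPM in cells with none of the genes. The sources used here do not say whether counting used strand, so reads of MSC and MSC-AS1 cannot be told apart. In GENCODE release 29 on GRCh38, VCAN lies at chr5:83471465-83582303, GREM1 at chr15:32717974-32745107 and IL6 at chr7:22725884-22732002, all on the plus strand.

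CXCL8, a chemokine that draws neutrophils, was at 133, 256, 77.7 and 30.8 CPM in members and at 3.34, 2.79, 2.60 and 1.77 CPM in cells with none of the 4 genes. It was higher in members in each library, and the groups did not overlap. The gene was detected in 49 of 144 members, 34.0% with an exact 95% interval of 26.3% to 42.4%, and in 635 of 15639 comparison cells, 4.06%, at median depths of 26795.5 and 29593 UMIs. A single member of library 2 held 99 UMIs, or 16.8% of all CXCL8 UMIs in members. Cells without a UMI may still express the gene, so the share is one of detection. Because CXCL8 was picked with the genes of the rule, its level does not test the name inflammatory, and the cells are called by the rule.

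Pooled over barcodes, the levels changed by steps across the rule's threshold. Members with 4 genes had a median of 868 CPM over 18 epithelial genes and those with 3 had 1065 CPM, against 1638 CPM in cells with 2 genes, 5668 CPM with 1 and 9613 CPM with none. The sum of 16 mesenchymal genes had medians of 6290 CPM with 4 genes and 4788 CPM with 3, against 4048, 1449 and 822 CPM with 2, 1 and 0 genes. The sum of 18 chemokine genes, CXCL8 among them, did not follow the same steps. Its medians were 591 CPM at 4 genes, 112 at 3, 57.9 at 2, 59.2 at 1 and 70.6 at 0. Median depth was 24785.5 UMIs with 4 genes and 27268.5 with 3, against 28384, 29383 and 29593 with 2, 1 and 0. These sums come from the cells that the rule sorted and are a description. The pooled steps mix barcodes, because SBO05 held 20 of the 144 members against 199 of the 452 cells with 2 genes and 1976 of the 15639 with none. Without SBO05, the mesenchymal medians were 6290 CPM with 4 genes and 4696 with 3, against 2234, 915 and 769 CPM with 2, 1 and 0 genes. Their epithelial medians were 868 and 1158 CPM, against 6298, 9395 and 10571 CPM, and their chemokine medians 791 and 155 CPM, against 109.8, 87.5 and 75.8 CPM. Within SBO05 the mesenchymal median was already 4082 CPM with none of the genes, against 5906 CPM in its 18 members with 3. At the depth limit, the member nearest above it had 10787 UMIs, and 1 cell that passed every other step fell short with 9472. The median member had 8 UMIs over the 4 genes, with a range of 3 to 60, and 12 members had the minimum of 3.

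The members made up 0.727% of cells past the filter, with an exact 95% interval of 0.613% to 0.855% that covers counting error only. The share was 0.787% (0.588 to 1.03) in library 1, 1.01% (0.737 to 1.35) in library 2, 0.427% (0.265 to 0.653) in library 3 and 0.678% (0.443 to 0.992) in library 4. By the barcode with most SBO UMIs in a cell, each of the 12 barcodes had a member, but with clear barcodes SBO11 had 0 of 298 cells, which allows up to 1.01%, and SBO04 and SBO12 kept 1 member each. When every cell was first thinned to 10000 UMIs, which can only remove cells from the rule, 59 members passed, or 0.298%, none of them under SBO07, SBO10 and SBO11.

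Under this rule the share was highest under SBO06, at 30 of 2039 cells or 1.47% (0.995 to 2.09), with 14 of 1224 in library 1 and 16 of 815 in library 2. SBO06 carried 20.8% of the members against 10.3% of all cells. Under SBO05, the barcode with most cells of its pool, 20 of 3483 cells were members, 0.574% (0.351 to 0.885). Under SBO08, the largest barcode of the other pool, 24 of 4619 were, 0.520% (0.333 to 0.772). SBO09 had 12 of 973, 1.23% (0.639 to 2.14), SBO01 19 of 2050, 0.927%, and SBO03 20 of 2576, 0.776%. SBO04 and SBO12 were both at 1.02%, from 4 of 394 and 5 of 488 cells, and SBO02 at 0.816% from 4 of 490. The lowest shares were those of SBO10, SBO11 and SBO07, at 2 of 739, 1 of 441 and 3 of 1462 cells. The intervals of SBO06 and SBO05 do not overlap under this rule, and most neighbours in this order have intervals that do. The order depends on the rule. With 2 of the 4 genes asked, SBO05 was highest at 6.29% (5.50 to 7.15) and SBO06 was at 3.29% (2.56 to 4.15), and with all 4 asked, SBO09 was at 0.514% and SBO06 at 0.490%. It also depends on the barcode call: with clear barcodes alone SBO06 was at 2.28% (1.52 to 3.28), SBO05 at 0.584% and SBO04 at 0.450%, and without shared cell barcodes SBO10 was at 0.142%. Loads of a pool differed for the small barcodes, with SBO09 at 0.735% and 1.86% in libraries 3 and 4, SBO12 at 0.714% and 1.44% and SBO07 at 0.121% and 0.314%. In libraries 1 and 2 SBO04 was at 0.441% and 1.80%, SBO02 at 0.350% and 1.47%, and SBO06 at 1.14% and 1.96%. In library 4, SBO11 had 0 members among 185 cells, which allows a share of up to 1.62%. The 15-base sequences of the 3 barcodes that the results turn on are given here, written wholly in capitals because every base identifies the sample:
SBO05: TGGTGACAAGTATCT
SBO06: CACTCCTTGACAGGT
SBO08: GCCAAGATCAGGTCC

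**Figure D1:**
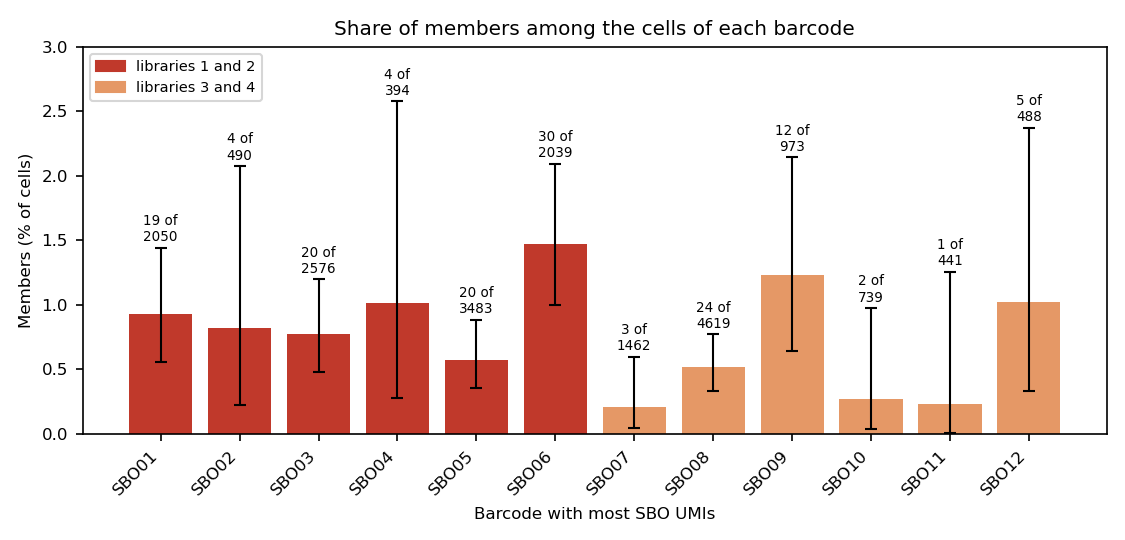
Share of cells past the filter that are members (percent, y axis) for each barcode with most SBO UMIs (x axis), with exact 95% binomial intervals; red bars are the pool of libraries 1 and 2 and orange bars that of libraries 3 and 4. SBO06 stands highest at 1.47%, while the intervals of SBO02 and SBO04, with 4 members each, are wide.

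Members were not deeper than the cells they were set against. Their median UMIs were 22138, 27127, 26464 and 34152.5 in libraries 1 to 4, against 24073.5, 28672, 30602.5 and 38880 in cells with none of the genes. Their median mitochondrial share was 1.32%, 1.37%, 1.67% and 1.21%, against 1.48%, 1.47%, 1.74% and 1.61%. Both were lower in members in 4 of 4 libraries, as was the number of genes detected, each with p = 0.13 in a two-sided exact permutation test over libraries, the smallest value that 4 libraries allow. SBO UMIs ran the other way, with medians of 1607.5, 1673, 648 and 1621.5 in members against 667.5, 593, 261 and 295.5, higher in 4 of 4 libraries (exact permutation p = 0.13). The gap was wide under SBO06, at 2784.5 in members against 459, and small under SBO01, at 699 against 641.

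The members varied among themselves. The epithelial sum ran over members from 160 to 19850 CPM with a median of 930, and 132 of the 144 lay below the median of 9613 CPM of cells with none of the genes. The mesenchymal sum ran from 278 to 14364 CPM with a median of 5250, and 139 members lay above the 822 CPM of the comparison cells. The chemokine sum, which includes CXCL8, picked with the genes of the rule, had a median of 207 CPM in members and 70.6 CPM in comparison cells. It reached 20141 CPM in 1 member and was 0 in 15. At or above 1000 CPM of chemokines there were 38 members, or 26.4%, and 167 comparison cells, or 1.07%. These 38 cells were 11 of 30 members under SBO06, 8 of 19 under SBO01, 8 of 20 under SBO03, 3 of 24 under SBO08 and 1 of 20 under SBO05. By pool they were 31 of 97 members in libraries 1 and 2 and 7 of 47 in libraries 3 and 4.

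**Figure D2:**
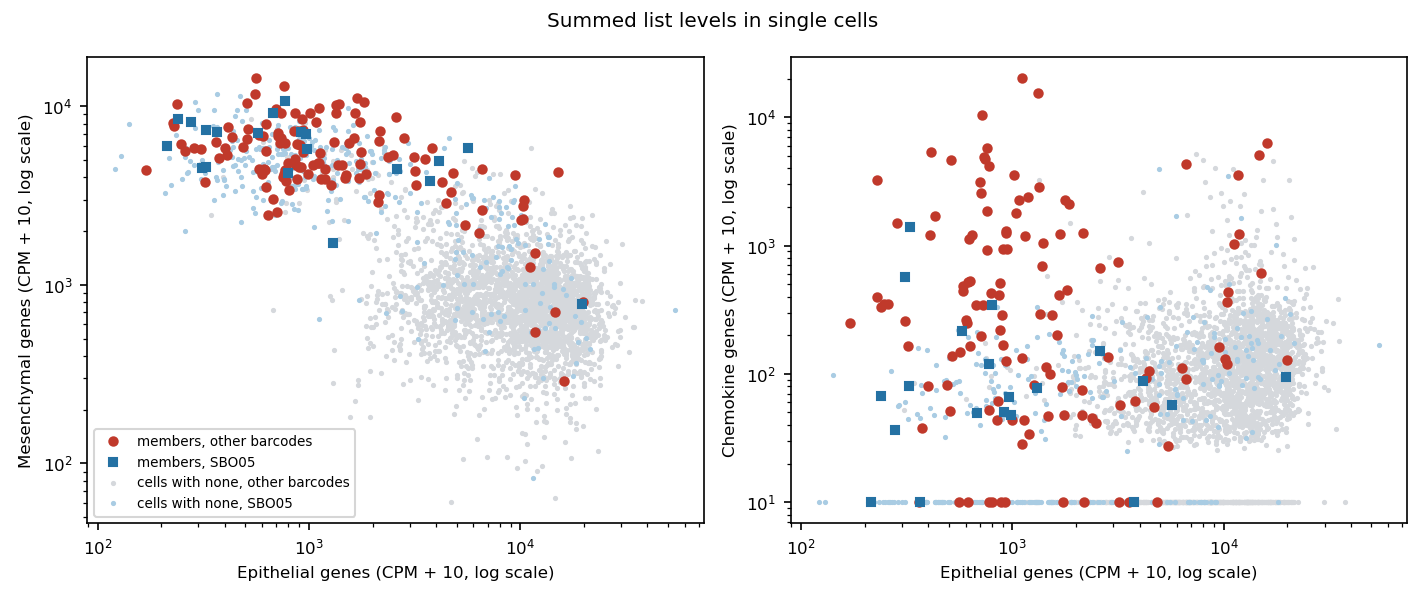
Summed epithelial expression per cell (x axis, CPM + 10, log scale) against summed mesenchymal (left) and chemokine (right) expression (y axes, CPM + 10, log scale), with members of other barcodes as red circles, SBO05 members as blue squares and 3000 randomly drawn cells with none of the 4 genes as pale points, light blue under SBO05 and grey under other barcodes. Most members lie at low epithelial and high mesenchymal sums, below the comparison median of 9613 CPM on the x axis, while their chemokine sums spread from 0 to 20141 CPM.

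The 12 members with high epithelial sums stood apart in other ways. Their median depth was 39377.5 UMIs against 26271.5 in the remaining members, and 11 of the 12 had a clear barcode. A list of interferon-response genes summed to a median of 6349 CPM in them and 1033 CPM in the remaining members. Whether they hold RNA of more than 1 cell was not tested.

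To ask which other genes differ in these cells, UMIs were summed over the members and over the cells with none of the 4 genes in each library. The sums were compared by the quasi-likelihood test of edgeR, blocked by library, and p-values were adjusted by the Benjamini-Hochberg method over all genes outside the rule. Of 16653 genes tested, 1357 were higher in members (8.15% of those tested) and 1987 were lower (11.9%), 20.1% in either direction, at an adjusted p of at most 0.05. The median log2 fold change of all genes was −0.08. The genes of the rule were picked from these cells for their shared pattern, so genes that vary with them were likely to pass, and the tests that follow are not independent of that choice. Sums weigh each cell by its RNA, so a change in a sum cannot tell fewer expressing cells from less RNA per cell. Most genes below were named for large changes, so groups without overlap were likely among them and add nothing to the test. The share of all tested genes without overlap is not given here.

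**Figure D3:**
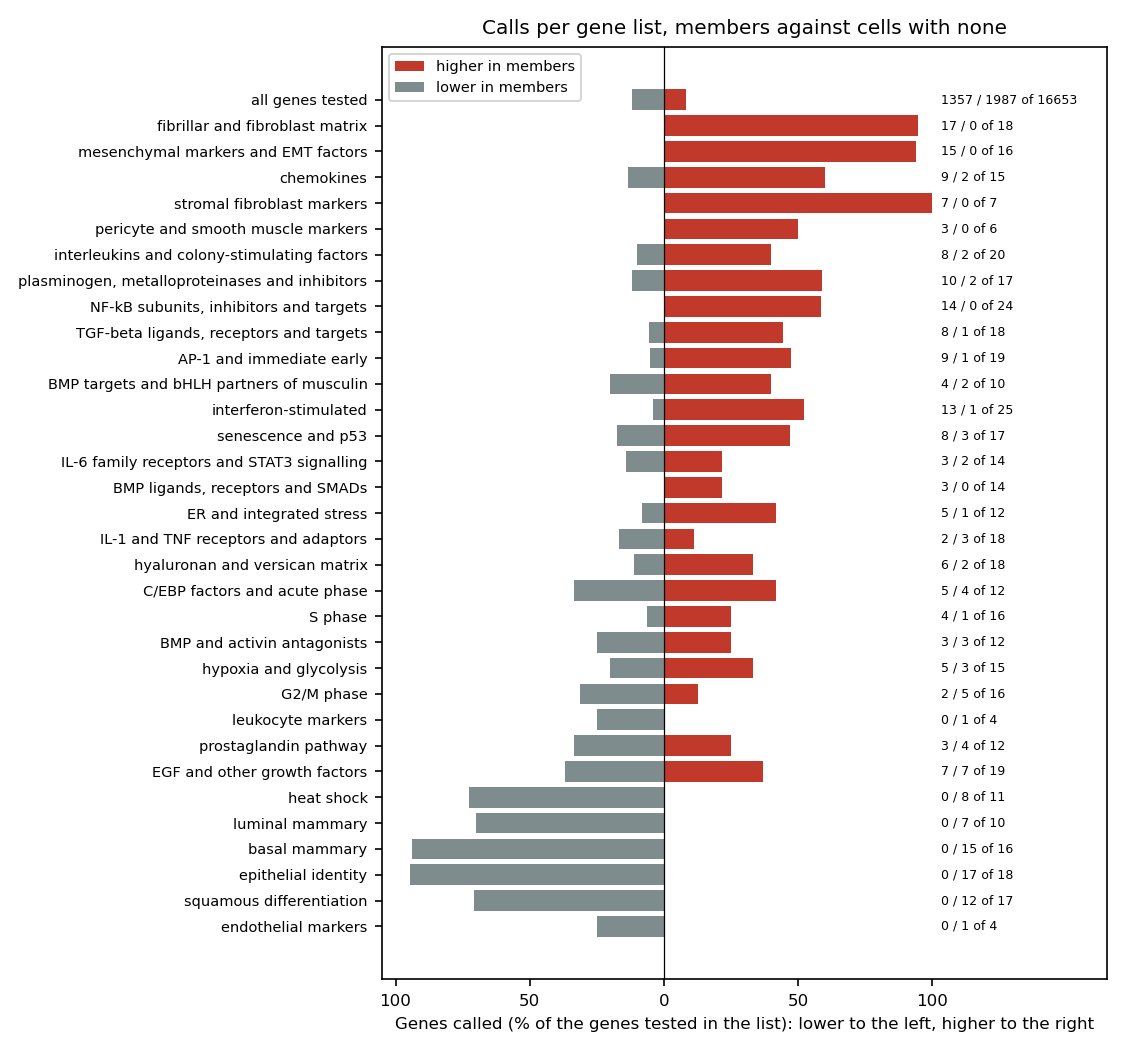
Percent of the tested genes of each list that were higher in members (bars to the right) or lower (bars to the left) than in cells with none of the 4 genes, with all genes tested on top at 8.15% higher and 11.9% lower. Lists run in order of their median log2 fold change, and the matrix, mesenchymal and chemokine lists lie at the opposite end from the squamous and epithelial lists.

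CXC chemokines of the neutrophil-attracting group were higher in members in each library. CXCL1 was at 455, 495, 267 and 90.3 CPM in members and at 15.9, 16.3, 13.8 and 10.7 CPM in cells with none of the genes (log2 fold change 4.34, SE 0.13, edgeR adjusted p = 2.2e-50). CXCL2 was at 204, 223, 186 and 55.4 CPM in members against 7.56, 7.90, 6.83 and 5.88 CPM, and CXCL3 at 177, 207, 72.2 and 80.0 CPM against 3.19, 2.73, 3.88 and 2.85 CPM. The groups did not overlap for any of the 3, and members of library 4 were lowest for CXCL1 and CXCL2. The log2 fold changes were 4.43 for CXCL2 and 5.34 for CXCL3 (SE 0.13 and 0.16, edgeR adjusted p = 1.7e-50 and 2.4e-49). CXCL1, CXCL2 and CXCL3 are close copies of each other, so the split of reads between them is uncertain. CXCL1 was detected in 53.5% of members against 13.8% of comparison cells. Single cells weighed on the sums: 1 member of library 1 held 152 of the 244 CXCL3 UMIs of that library's members. In library 2, 1 member held 136 of the 292 CXCL2 UMIs of members. CXCL5 and CXCL6, which bind the same receptor group, rose by log2 fold changes of 4.12 and 4.28 (edgeR adjusted p = 6.2e-18 and 9.2e-19).

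Of 15 chemokines tested, 9 were higher in members and 2 lower, with a median log2 fold change of 2.37 against −0.08 over all genes. Beside the 5 above, the higher ones were CXCL10, CXCL11, CCL2 and CCL5, and the lower ones were CXCL16 and CCL28. The median rested on few cells: without the 12 members of high epithelial sums it was 0.17, with 6 chemokines higher and 2 lower, while CXCL1, CXCL2, CXCL3, CXCL5 and CXCL6 still passed. Their receptors were almost absent: CXCR1 had 1 UMI in all members and 40 in all comparison cells, and CXCR2 had 1 and 143.

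The 250 bases before the RefSeq start of each gene were searched on both strands for GGNNTTTCC, a short form of the site that NF-κB binds. It occurred in 1926 of 35116 promoters, 5.48%. Of the 18 chemokine genes, 14 had a promoter in the table. Of these 9 held a match, CXCL8 among them, as did 14 of 22 from a list of NF-κB subunits, inhibitors and targets. That list was drawn up around NF-κB, so matches in it were likely. Matches were found in 1 of 6 epithelial, 1 of 12 matrix and 2 of 10 mesenchymal promoters. A match is a run of letters and not a measured site. The promoters of SOD2, CSF2 and TNF, genes that were also higher in members, held no match. Those of IL6, a gene of the rule, CXCL8, picked with it, and CXCL1 are shown as examples that hold a match. Matches are in capitals, from RefSeq on GRCh38.p14, plus strand. The match begins 72 bases before the start in IL6 (chr7:22726950-22727199), 91 in CXCL8 (chr4:73740319-73740568), and 78 and 53 in CXCL1 (chr4:73869143-73869392):
IL6: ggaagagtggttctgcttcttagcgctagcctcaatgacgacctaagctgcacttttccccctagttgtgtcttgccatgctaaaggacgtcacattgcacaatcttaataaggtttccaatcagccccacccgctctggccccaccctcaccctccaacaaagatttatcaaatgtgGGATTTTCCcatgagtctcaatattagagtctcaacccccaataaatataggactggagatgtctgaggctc
CXCL8: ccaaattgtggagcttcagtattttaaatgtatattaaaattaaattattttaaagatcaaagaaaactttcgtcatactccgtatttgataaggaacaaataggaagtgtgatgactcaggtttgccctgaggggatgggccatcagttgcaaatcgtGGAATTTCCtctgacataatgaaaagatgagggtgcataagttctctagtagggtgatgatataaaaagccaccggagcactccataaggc
CXCL1: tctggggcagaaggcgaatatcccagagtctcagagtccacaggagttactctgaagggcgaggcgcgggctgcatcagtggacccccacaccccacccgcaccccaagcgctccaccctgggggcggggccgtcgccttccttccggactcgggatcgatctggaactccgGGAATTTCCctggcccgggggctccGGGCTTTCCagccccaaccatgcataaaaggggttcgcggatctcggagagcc

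Interleukins and colony-stimulating factors rose in part. Of 20 tested, 8 were higher in members (IL1A, IL11, IL32, LIF, CSF1, CSF2, CSF3 and TNF) and 2 were lower (IL1RN, the antagonist of the interleukin 1 receptor, and IL18). IL11, a cytokine that also signals through IL6ST, was at 39.9, 37.5, 21.7 and 49.2 CPM in members and at 10.3, 9.60, 6.36 and 7.22 CPM in comparison cells (log2 fold change 2.09, SE 0.19, edgeR adjusted p = 2.5e-17). It was higher in members of every library, without overlap. CSF3, the granulocyte factor, was at 13.8, 73.5, 1.81 and 5.13 CPM in members against 0.911, 1.03, 1.05 and 0.843 CPM (log2 fold change 4.03, SE 0.49, edgeR adjusted p = 3.6e-11). One cell of library 2 held 53 of its 121 member UMIs, 43.8%, and without library 2 the log2 fold change was 2.86.

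CSF2 and TNF were high in the members of some libraries only. CSF2 was at 31.9, 42.8, 1.81 and 8.21 CPM in members against 4.26, 3.69, 2.34 and 3.50 CPM, so that members of library 3 fell below their comparison cells. TNF was at 13.04, 13.01, 10.8 and 0 CPM in members against 2.27, 2.31, 1.69 and 1.70 CPM. Both passed the test over 4 libraries, with log2 fold changes of 2.53 and 2.08 (edgeR adjusted p = 4.9e-12 and 3.1e-05). Neither passed in libraries 3 and 4 alone, and the same held for CSF3. In library 2, 1 member held 38 of the 56 CSF2 UMIs of members, and 1 held 15 of the 17 TNF UMIs.

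Genes around NF-κB rose with the cytokines: 14 of 24 tested were higher in members and none of the 24 was lower, with a median log2 fold change of 0.68, or 0.33 without the 12 members of high epithelial sums and 0.27 without cells of shared barcodes. SOD2, a mitochondrial superoxide dismutase induced by NF-κB, was at 392.03, 305, 464 and 249.3 CPM in members and at 74.9, 73.6, 69.7 and 71.7 CPM in comparison cells (log2 fold change 2.18, SE 0.09, edgeR adjusted p = 1.4e-38). IER3, an immediate early gene, was at 609, 680, 547 and 405 CPM against 157, 161, 159 and 163 CPM (log2 fold change 1.73, SE 0.09, edgeR adjusted p = 2.9e-32). ICAM1, an adhesion molecule for leukocytes, was at 41.3, 41.3, 50.6 and 24.6 CPM against 9.79, 10.5, 9.27 and 8.93 CPM. NFKBIZ, an inducible nuclear regulator of NF-κB, was at 49.3, 111, 84.9 and 25.6 CPM against 11.7, 11.8, 9.64 and 8.38 CPM. Both rose, by log2 fold changes of 1.94 and 2.54 (edgeR adjusted p = 2.2e-16 and 2.6e-24). All 4 genes were higher in members in every library without overlap, and comparison cells varied little between libraries.

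Of 18 receptors and adaptors of interleukin 1 and TNF, only IRAK2 and TRAF1 were higher and IL1R2, IRAK1 and TRADD were lower. Over all genes tested, 20.1% were called in either direction. Of 19 AP-1 and other immediate early genes, 9 were higher and DUSP5 alone was lower. Among them the stress factor ATF3 was at 69.6, 81.9, 79.5 and 123 CPM in members against 27.0, 27.0, 24.4 and 25.6 CPM (log2 fold change 1.68, edgeR adjusted p = 5.7e-24). Without cells of shared barcodes its log2 fold change was 0.94.

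The receptor chains of interleukin 6 did not move together. IL6ST was at 70.3, 64.3, 56.0 and 65.6 CPM in members and at 38.1, 42.5, 32.7 and 30.8 CPM in comparison cells (log2 fold change 0.78, SE 0.12, edgeR adjusted p = 3.2e-08). IL6R was scarce, at 2.17, 0, 0 and 2.05 CPM in members, which is 5 UMIs in all, against 4.06, 4.41, 4.71 and 5.10 CPM (log2 fold change −1.99, SE 0.57, edgeR adjusted p = 0.0057). STAT3 was at 39.9, 31.4, 36.1 and 40.0 CPM in members against 46.8, 55.1, 47.0 and 44.9 CPM (log2 fold change −0.46, SE 0.13, edgeR adjusted p = 0.0052). The calls of IL6R and STAT3 rest on library 2, without which the edgeR adjusted p was 0.093 and 0.18, and neither passed by DESeq2 (adjusted p = 0.067 and 0.085). IL6ST did not pass once cells were thinned to 10000 UMIs. Of 14 genes of the IL-6 family and STAT3 pathway, 3 were higher and 2 lower.

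Acute phase and C/EBP genes divided by gene: 5 of 12 were higher and 4 lower. TNFAIP6, a secreted protein that cross-links hyaluronan, was at 15.9, 24.5, 21.7 and 5.13 CPM in members against 0.602, 0.637, 0.0372 and 0.0155 CPM (log2 fold change 6.17, SE 0.59, edgeR adjusted p = 1.1e-15). PTX3, a secreted pattern-recognition protein, was at 101, 148, 57.8 and 24.6 CPM against 19.5, 19.96, 1.07 and 1.53 CPM (log2 fold change 3.24, edgeR adjusted p = 4.1e-27). LCN2, the iron-carrier binding protein lipocalin 2, was lower, at 39.1, 18.4, 28.9 and 35.9 CPM against 122, 121, 173 and 177 CPM (log2 fold change −2.29, edgeR adjusted p = 7.9e-30). CEBPB and CEBPD were among the higher genes, and CEBPA, SAA1 and SAA2 among the lower.

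**Figure D4:**
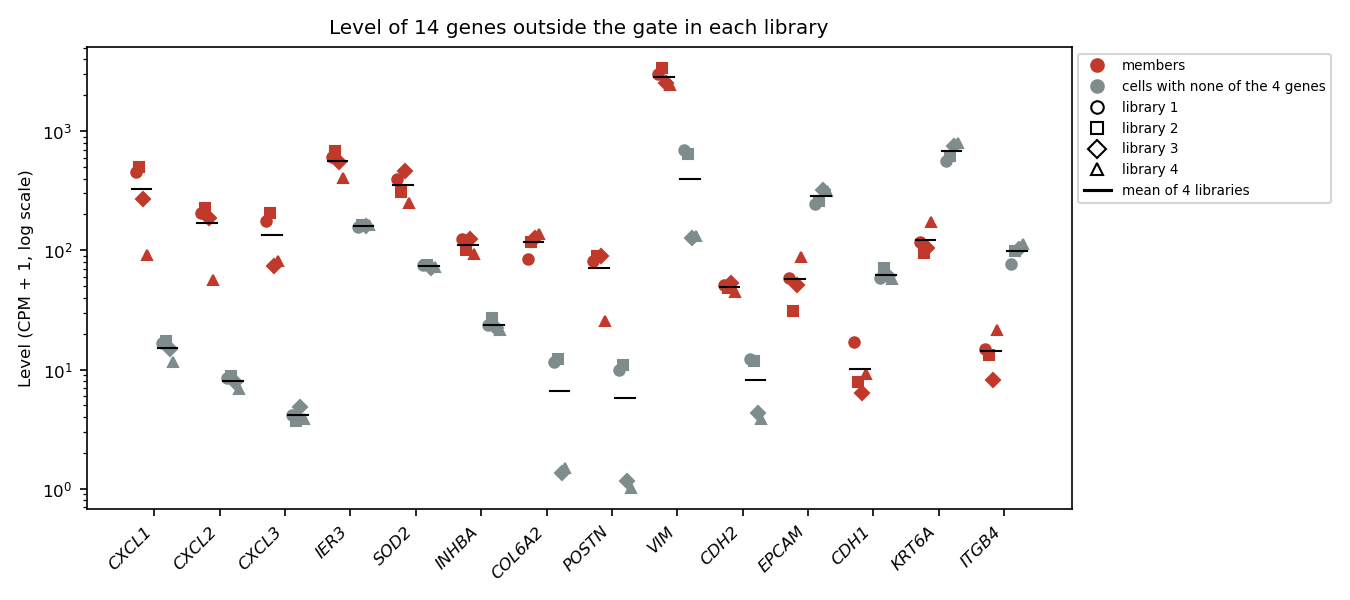
CPM + 1 (y axis, log scale) of 14 genes (x axis) in the 4 libraries, with members in red on the left and cells with none of the 4 genes in grey on the right of each gene; points are libraries, by shape, and bars their means. The chemokines lie highest in members of libraries 1 and 2, and matrix genes such as POSTN lie lowest in comparison cells of libraries 3 and 4.

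Around GREM1, the BMP and activin genes moved in several directions. BMP2, a ligand that gremlin 1 binds, was at 19.6, 9.18, 12.6 and 11.3 CPM in members and at 2.71, 2.55, 2.80 and 3.36 CPM in comparison cells (log2 fold change 2.15, SE 0.32, edgeR adjusted p = 2.9e-08). It was 1.44 without the 12 members of high epithelial sums and 1.28 without cells of shared barcodes, and did not pass after thinning. BMP4 was scarce in both groups, with 3 UMIs in members and 743 in the comparison cells, which held far more UMIs in all. So few UMIs in members cannot show a difference. INHBA, which encodes the activin A subunit, was at 123, 100, 123 and 92.3 CPM in members against 22.8, 26.0, 21.3 and 20.3 CPM (log2 fold change 2.20, SE 0.11, edgeR adjusted p = 1.1e-33). FST, whose product follistatin binds activin, was at 6.52, 9.95, 25.3 and 16.4 CPM against 53.5, 60.2, 39.2 and 43.1 CPM (log2 fold change −2.05, SE 0.18, edgeR adjusted p = 4.1e-17). For BMP2, INHBA and FST no library's members overlapped the comparison cells.

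Of 12 BMP and activin antagonists and partners, 3 were higher (FSTL1, FSTL3 and INHBA) and 3 lower (FST, NBL1 and INHBB). Of 14 BMP ligands and receptors 3 were higher and none of the 14 lower, a share near the 20.1% called in either direction over all genes tested. ID1, a target of BMP signalling and a helix-loop-helix inhibitor, was at 32.6, 44.4, 50.6 and 28.7 CPM in members against 47.0, 49.7, 61.1 and 60.7 CPM, and the groups overlapped. Its log2 fold change was −0.55 (edgeR adjusted p = 0.00067), and without library 4 it was −0.35 (edgeR adjusted p = 0.074). Of 10 BMP targets and helix-loop-helix genes, 4 were higher, MSC-AS1 among them, and 2 lower. Reads of MSC-AS1 cannot be told apart from those of MSC, a gene of the rule, so its call is a description. TCF4, which encodes a helix-loop-helix partner protein, rose by a log2 fold change of 1.74 (edgeR adjusted p = 6.5e-05).

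Genes of the matrix around versican rose in part, 6 of 18 higher and 2 lower. ADAMTS1, a protease that cleaves versican, was at 122, 93.3, 93.9 and 106 CPM in members and at 6.96, 7.32, 2.65 and 2.52 CPM in comparison cells (log2 fold change 4.46, SE 0.16, edgeR adjusted p = 7.0e-43). HAS2, a hyaluronan synthase, had 16 UMIs in members, at 3.62, 4.59, 3.61 and 3.08 CPM against 0.174, 0.117, 0.112 and 0.0619 CPM (log2 fold change 4.94). HAS2 reached the low-count filter only through the members, where it was high, so its call among the higher genes is a description. ADAMTS4, ADAMTS5, FBLN2 and TNC were the other higher genes. The lower ones were CEMIP2, a hyaluronan-degrading protein, and HMMR, a hyaluronan-binding protein that also acts at the mitotic spindle.

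Fibroblast matrix genes rose nearly as a whole, 17 of 18 tested, with a median log2 fold change of 3.21; COL6A3 alone did not pass. COL1A1, a chain of type I collagen, was at 287, 225, 242 and 152 CPM in members and at 39.0, 48.9, 5.82 and 5.62 CPM in comparison cells (log2 fold change 3.56, SE 0.17, edgeR adjusted p = 5.1e-35). COL6A2, a chain of type VI collagen at chr21:46098097-46132849, was at 83.3, 116, 126 and 136 CPM against 10.5, 11.3, 0.357 and 0.495 CPM (log2 fold change 5.12, SE 0.32, edgeR adjusted p = 1.1e-26). POSTN, the matricellular protein periostin, was at 79.7, 88.8, 88.5 and 24.6 CPM against 8.88, 9.97, 0.164 and 0.00773 CPM (log2 fold change 4.74, SE 0.36, edgeR adjusted p = 3.6e-21). No gene of the 3 overlapped between the groups, and comparison cells of libraries 1 and 2 held more of each than those of libraries 3 and 4. SBO05 led cells of libraries 1 and 2 alone. Its cells held 2006 of the 2507 COL6A2 UMIs of all comparison cells and 1691 of the 2083 POSTN UMIs. The log2 fold changes differed by pool, at 3.18 for COL6A2 and 3.16 for POSTN in libraries 1 and 2 and at 8.15 and 9.40 in libraries 3 and 4. Leaving out 1 library in turn gave 4.25 to 6.17 for COL6A2 and 3.65 to 6.27 for POSTN. The type VI collagen chain COL6A1, the small proteoglycan DCN and ABI3BP rose by log2 fold changes of 4.37, 5.37 and 4.65 (edgeR adjusted p = 4.2e-32, 4.3e-11 and 6.7e-30). COL6A2 was detected in 59.0% of members against 7.47% of comparison cells.

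Mesenchymal markers and EMT factors were higher in 15 of 16, with a median log2 fold change of 2.60, and S100A4 did not pass. VIM, the intermediate filament vimentin, was at 3002, 3378, 2512 and 2431 CPM in members and at 692, 642, 127 and 132 CPM in comparison cells (log2 fold change 3.18, SE 0.14, edgeR adjusted p = 2.9e-37). CDH2, or N-cadherin, was at 44.1 to 52.4 CPM in members of the 4 libraries against 11.4, 10.9, 3.31 and 2.84 CPM (log2 fold change 2.84, edgeR adjusted p = 1.2e-22). The EMT transcription factors ZEB2 and FOXC2 rose by 3.72 and 3.43 (log2 fold change, edgeR adjusted p = 2.0e-14 and 3.6e-19). None of these 4 overlapped between groups. For VIM the log2 fold change was 2.26 in libraries 1 and 2 and 4.13 in libraries 3 and 4. SBO05 cells of libraries 1 and 2 held 109498 of the 181899 VIM UMIs of all comparison cells.

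Proteases, their inhibitors and TGF-β genes rose in part beside them. Of 17 plasminogen, metalloproteinase and inhibitor genes 10 were higher and 2 lower, among them MMP9, a gelatinase, at 20.3, 10.7, 1.81 and 6.15 CPM against 49.9, 59.7, 40.2 and 45.5 CPM (log2 fold change −2.20, edgeR adjusted p = 1.5e-18). Its relative MMP2 moved the other way, by 2.01 (log2 fold change, edgeR adjusted p = 1.3e-14). Of 18 TGF-β ligands, receptors and targets 8 were higher and LTBP3 was lower. TGFB2 was at 46.4, 54.3, 50.6 and 41.0 CPM in members against 6.93, 7.84, 4.80 and 4.26 CPM (log2 fold change 2.95, SE 0.18, edgeR adjusted p = 2.1e-26). CCN1 and CCN2, secreted matricellular proteins, rose by 2.08 and 2.66 (log2 fold change, edgeR adjusted p = 7.3e-41 and 6.3e-40).

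Several genes outside the lists ranked among the 15 largest rises. HHIP, which binds hedgehog ligands, was at 22.5, 36.7, 18.1 and 34.9 CPM in members against 3.84, 3.72, 0.335 and 0.333 CPM (log2 fold change 4.20, edgeR adjusted p = 6.1e-18). CREB3L1, a membrane-bound transcription factor of collagen-secreting cells, was at 26.8, 24.5, 41.5 and 26.7 CPM against 4.04, 4.06, 0.454 and 0.627 CPM (log2 fold change 4.00, edgeR adjusted p = 1.8e-18). FABP3, a fatty acid binding protein, rose by 4.03 and CADM3, a cell adhesion molecule, by 3.97 (log2 fold change, edgeR adjusted p = 1.8e-15 and 1.3e-15). CADM3 did not pass when library was left out of the model (edgeR adjusted p = 0.096).

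Epithelial identity genes were lower in members in 17 of 18, with a median log2 fold change of −2.17; CLDN1 did not pass. CDH1, or E-cadherin, was at 15.9, 6.89, 5.42 and 8.21 CPM in members and at 57.2, 70.2, 59.6 and 56.7 CPM in comparison cells (log2 fold change −2.68, SE 0.18, edgeR adjusted p = 2.0e-24). EPCAM, an epithelial adhesion molecule, was at 57.2, 29.8, 50.6 and 86.2 CPM against 245, 257, 321 and 316 CPM (log2 fold change −2.42, SE 0.11, edgeR adjusted p = 2.6e-35). EPCAM was detected in 33.3% of members against 90.8%, and CDH1 in 17.4% against 69.3%. Without the 12 members of high epithelial sums, a set that this choice itself lowers, the log2 fold changes were −3.70 for CDH1 and −3.55 for EPCAM. ST14, which encodes the protease matriptase, and ESRP2, a splicing regulator of epithelial isoforms, had log2 fold changes of −2.73 and −2.49 (edgeR adjusted p = 5.5e-28 and 4.1e-12). The keratin genes KRT19, KRT18 and KRT8 fell too, with log2 fold changes of −2.23, −1.85 and −1.60 (edgeR adjusted p = 8.3e-40, 1.1e-33 and 6.7e-31). KRT18 was at 1533, 1015, 1215 and 1354 CPM in members against 4064, 3917, 4790 and 4754 CPM.

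Basal and squamous genes fell with them. Basal mammary genes were lower in 15 of 16 with a median log2 fold change of −1.77, squamous genes in 12 of 17 with −2.61, and luminal genes in 7 of 10 with −1.72. None of the tested genes of these 3 lists was higher. ITGB4, the hemidesmosome integrin, was at 13.8, 12.2, 7.22 and 20.5 CPM in members against 76.3, 97.7, 102 and 111 CPM (log2 fold change −2.82, SE 0.15, edgeR adjusted p = 1.1e-30). COL17A1, a hemidesmosome collagen, and FGFBP1, a fibroblast growth factor carrier, had log2 fold changes of −3.00 and −3.15 (edgeR adjusted p = 3.2e-22 and 4.8e-42). S100A7, the squamous protein psoriasin, had 4 UMIs in all members and the largest fall among genes that passed with a mean of at least 10 CPM, −4.37 on the log2 scale (SE 0.39, edgeR adjusted p = 4.2e-17). AREG, a ligand of the EGF receptor, was at 23.9, 24.5, 19.9 and 32.8 CPM in members against 180, 167, 203 and 189 CPM (log2 fold change −2.89, edgeR adjusted p = 1.0e-37). Of 19 EGF and other growth factor genes, 7 were higher, among them HBEGF, NRG1, FGF2 and VEGFC, and 7 lower, among them AREG, TGFA, EGFR and ERBB3.

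Calls in other programmes were mixed, beside 8.15% higher and 11.9% lower over all genes tested. Of 17 senescence and p53 genes 8 were higher, among them the cyclin-dependent kinase inhibitor CDKN2B (log2 fold change 1.16, edgeR adjusted p = 4.0e-17) and the secreted binding proteins IGFBP4 and IGFBP7 (2.73 and 2.21, edgeR adjusted p = 2.3e-33 and 1.9e-36). CDKN1A, IGFBP2 and HMGA1 were lower. S-phase genes were higher in 4 and lower in 1 of 16, and G2 and M-phase genes higher in 2 and lower in 5 of 16. Hypoxia genes were higher in 5 and lower in 3 of 15, with BNIP3 and ADM at log2 fold changes of 1.24 and 1.48 (edgeR adjusted p = 1.3e-24 and 6.6e-19). Endoplasmic reticulum stress genes were higher in 5 and lower in 1 of 12, while heat shock genes were lower in 8 and higher in none of 11. Of 12 genes of the prostaglandin list 3 were higher and 4 lower. The synthesis enzymes PTGS1 and PTGES were lower (log2 fold change −2.58 and −1.44, edgeR adjusted p = 2.4e-13 and 3.8e-24) and the receptor PTGER4 was higher (1.67, edgeR adjusted p = 1.3e-06). ALOX5AP, an activating protein of leukotriene synthesis, was at 5.07, 45.1, 9.03 and 9.23 CPM in members against 3.61, 3.83, 2.94 and 2.90 CPM (log2 fold change 2.13, edgeR adjusted p = 8.5e-08), with 59 of its 80 member UMIs in library 2. Without library 2 its log2 fold change was 1.15 (edgeR adjusted p = 0.072).

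Interferon-response genes depended on a few members. Of 25 tested, 13 were higher and 1 lower in all members. Without the 12 members of high epithelial sums 4 were higher and 9 lower, and without cells of shared barcodes 5 were higher and 3 lower. In libraries 1 and 2 alone 1 was higher and in libraries 3 and 4 alone 20 were. RSAD2, an antiviral enzyme, was at 13.8, 4.59, 139 and 45.1 CPM in members against 18.1, 19.2, 18.9 and 16.5 CPM, below its comparison cells in libraries 1 and 2 and above them in libraries 3 and 4. Its log2 fold change of 0.91 (edgeR adjusted p = 0.0018) became −0.64 without the 12 members, which held 102 of its 146 member UMIs, 73 of them in 1 cell of library 3. Without library 3 it was 0.03 (edgeR adjusted p = 0.96).

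Markers of other cell types were compared to see whether the members hold non-epithelial cells. Over 13 leukocyte markers the members summed to 72.7 to 93.9 CPM by library and the comparison cells to 116 to 121 CPM; PTPRC, LYZ, HLA-DRA, CD3D, CD3E and TYROBP were at 0 in members. Endothelial markers summed to 30.7 to 52.0 CPM in members against 55.6 to 56.9 CPM, with PECAM1, CDH5, KDR, TEK, CLDN5 and EMCN at 0 in members. Stromal fibroblast markers summed to 438 to 697 CPM in members against 80.2 to 189 CPM, and all 7 that could be tested were higher. Some fibroblast genes were scarce in members, with CXCL12 at 0 UMIs, PDGFRA at 1, TCF21 at 1 and LUM at 2, while COL1A1 had 972 and THY1 943. The small proteoglycan DCN, described above, was higher as well. Pericyte and smooth muscle markers summed to 32.8 to 126 CPM in members against 20.5 to 29.1 CPM, with MYH11 at 0, DES at 1 UMI and RGS5 at 4. Members held far fewer UMIs than comparison cells, so single genes with 0 to 4 UMIs in members say little. Of the 6 that could be tested 3 were higher and none of the 6 lower. MCAM, an adhesion molecule, was at 41.3, 45.9, 68.6 and 26.7 CPM in members against 19.2, 20.7, 14.3 and 16.1 CPM (log2 fold change 1.24, edgeR adjusted p = 4.3e-10). ACTA2, smooth muscle actin, was at 10.9, 27.5, 12.6 and 1.03 CPM against 2.25, 2.25, 1.32 and 1.47 CPM (log2 fold change 2.62, edgeR adjusted p = 6.6e-08), lower than its comparison cells in library 4. CNN1, a smooth muscle calponin also made by contractile mesenchymal cells, was at 23.2, 19.1, 27.1 and 3.08 CPM in members against 0.269, 0.170, 0.0521 and 0.0541 CPM (log2 fold change 6.96). CNN1 would not have reached the low-count filter without its level in members, so its call is a description. The part of stromal or pericyte RNA in these results was not tested.

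Cells under SBO05 were mesenchymal by median without being members. Those with none of the 4 genes had a median mesenchymal sum of 4082 CPM. It was 5250 CPM in members and 822 CPM in all cells with none of the genes. These SBO05 cells were mixed, and EPCAM was detected in 885 of the 1976, or 44.8%. The SBO05 cells allow a second comparison, chosen after these values were seen. It sets the 40 and 37 members under other barcodes against the 1262 and 714 SBO05 cells with none of the genes, in libraries 1 and 2. Of 13172 genes tested, 618 were higher in these members (4.69%) and 259 lower (1.97%) by the quasi-likelihood test of edgeR, blocked by library, 6.66% in either direction. Sample and cell kind are joined in this comparison and cannot be told apart.

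Chemokines and some other inflammatory genes held wide differences here. CXCL1 was at 623 and 605 CPM in the members and at 7.16 and 6.49 CPM in the SBO05 cells (log2 fold change 6.54, SE 0.11, edgeR adjusted p = 2.1e-22). CXCL2, CXCL3, CXCL5 and CXCL6 had log2 fold changes of 5.42, 6.51, 6.11 and 6.22, and of 11 chemokines tested 8 were higher and 1 lower. CXCL5, CXCL6, CSF2 and BMP2 would not have reached the low-count filter here without their levels in the members, so their calls are a description. The chemokine count includes CXCL5 and CXCL6 and is a description too. CSF2 was at 43.6 and 53.5 CPM against 1.31 and 0.832 CPM (log2 fold change 5.51). NF-κB genes were higher in 15 of 24 with a median log2 fold change of 0.94, with SOD2 at 487 and 361 CPM against 80.3 and 82.3 CPM and IER3 at 787 and 814 CPM against 113 and 107 CPM. INHBA was at 166 and 122 CPM against 11.8 and 9.26 CPM (log2 fold change 3.83, SE 0.15, edgeR adjusted p = 6.1e-15), and BMP2 had a log2 fold change of 4.34.

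By list median, matrix and mesenchymal genes differed from the SBO05 cells less than CXCL1, CXCL2 and CXCL3 did, and about as much as the NF-κB genes. COL6A2 was at 91.3 and 92.6 CPM in the members against 38.4 and 49.4 CPM (log2 fold change 1.13, SE 0.15, edgeR adjusted p = 8.8e-06), and POSTN at 61.9 and 97.4 CPM against 32.6 and 41.3 CPM (log2 fold change 1.15, SE 0.16, edgeR adjusted p = 1.5e-05). VIM was at 2825 and 3083 CPM against 2187 and 2548 CPM. ADAMTS1 and TGFB2 stayed further apart, with log2 fold changes of 3.14 and 2.93 (edgeR adjusted p = 1.2e-11 and 3.1e-10). PDPN, the membrane glycoprotein podoplanin, was at 101 and 55.4 CPM against 8.81 and 6.60 CPM (log2 fold change 3.39, edgeR adjusted p = 8.8e-12). Other genes that were higher in the first comparison did not pass here. CADM3 was at 45.7 and 67.8 CPM against 54.5 and 64.2 CPM (log2 fold change −0.01, edgeR adjusted p = 0.98). IGFBP4, BNIP3 and IL6ST had log2 fold changes of −0.02, 0.16 and 0.30 (edgeR adjusted p = 0.94, 0.37 and 0.34). In all, 11 of 18 matrix genes were higher and 1 lower, with a median log2 fold change of 0.90. Of 16 mesenchymal genes 10 were higher, with a median of 0.91, against 0.94 for the NF-κB list. The chemokine list had a median of 5.42, but CXCL5 and CXCL6 entered it only through their levels in the members. That median is therefore a description and does not rank the lists. Interferon-response genes were higher in 17 of 25, with a median of 1.10. Of 18 epithelial genes 1 was higher in these members and 9 lower, with a median of −0.54.

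The members under SBO05, 12 cells in library 1 and 8 in library 2, held lower chemokine levels than the members under other barcodes. Their CXCL1 was at 35.5 and 50.1 CPM against 623 and 605 CPM in the members under other barcodes, and their CXCL8 at 25.3 and 27.0 CPM against 177 and 312 CPM. In SBO05 cells with none of the genes CXCL8 was lower still, at 1.79 and 2.77 CPM. CXCL2 was detected in 10 of the 20 SBO05 members and in 62 of the 124 other members of the 4 libraries, the same share, with at most 2 UMIs in an SBO05 member against up to 136. IL6, a gene of the rule, was at 35.5 and 34.7 CPM in them against 181 and 122 CPM. SOD2 was at 155 and 77.1 CPM, IER3 at 162 and 139 CPM and INHBA at 15.2 and 11.6 CPM in SBO05 members. VIM was at 3444 and 4570 CPM in these cells, above the 2825 and 3083 CPM of the other members, and COL6A2 was at 63.4 and 208 CPM, on either side of 91.3 and 92.6 CPM. With 20 cells, these levels are a description and were not tested.

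**Figure D5:**
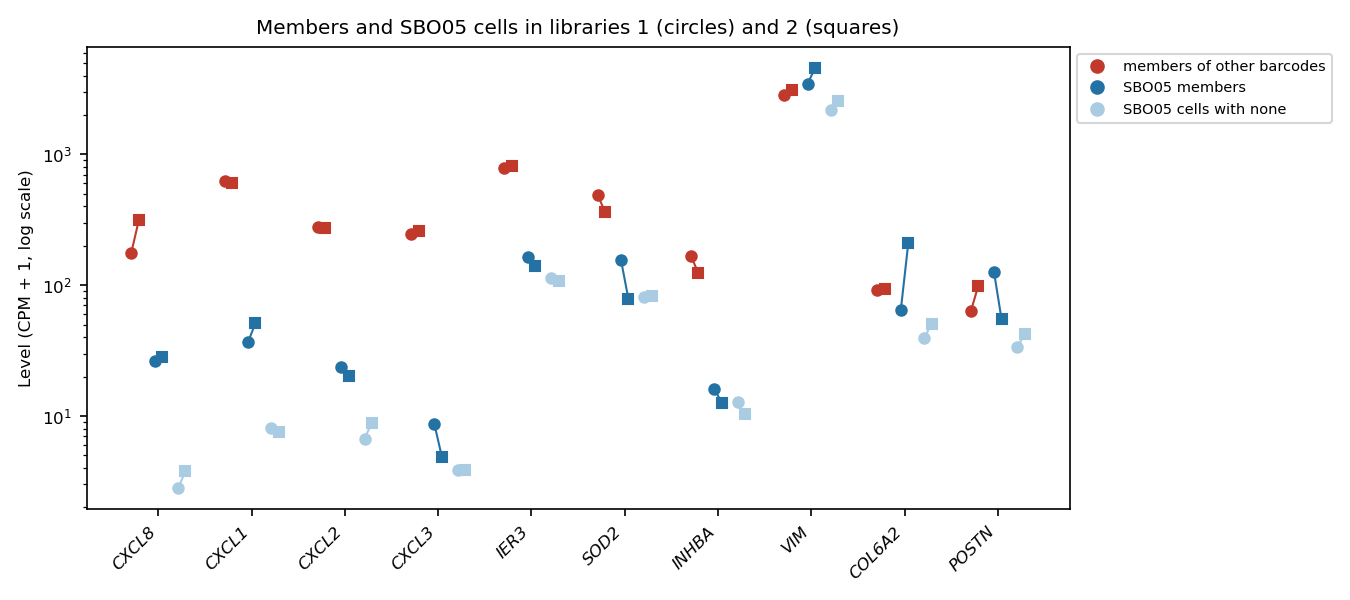
CPM + 1 (y axis, log scale) of 10 genes (x axis) in members of other barcodes, SBO05 members and SBO05 cells with none of the 4 genes, from left to right, with library 1 as circles, library 2 as squares and lines joining the same group. CXCL1 lies at 623 and 605 CPM in the first group and below 60 CPM in both SBO05 groups, while VIM lies above 2000 CPM in all 3.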

How the data were processed

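The values are UMI counts per gene and cell barcode, deposited by the authors for 4 libraries, with SBO UMI counts for the same cell barcodes. Per the submitters' processing notes, bcl2fastq 2.20.0.422, Cell Ranger 6.0.2, Seurat 4.1.0 and hg38 were used; no source used here gives their settings. Each matrix held 36601 genes. Members, gene lists and tests were chosen with earlier results of these data known, and the comparison with SBO05 cells was added after its values were seen.

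Cells were filtered and summed with Python 3.11.15, numpy 2.4.6, pandas 2.3.3 and scipy 1.17.1. Sums per library were tested with edgeR 4.0.16 in R 4.3.3 (filterByExpr, TMM, quasi-likelihood, library as a block because both sums of a library share its preparation) and, as an alternative, with DESeq2 1.42.0. Adjusted p-values use the Benjamini-Hochberg method over all genes tested, with a threshold of 0.05. The fits were tested on simulated data. Intervals are exact Clopper-Pearson at 95%, and 3 counts set the limit a count of 0 allows. CPM here are UMIs per 1000000 gene UMIs of the summed cells.

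Genes were named by rule: the 15 largest rises and falls among those past the threshold with a mean of at least 10 CPM and 1 sign in 4 libraries, up to 4 passing genes per list with a mean of at least 5 CPM, and a fixed set of receptors and partners. Genes outside this rule, named without a fold change to spell out a list count, were chosen after their values were seen. Alternatives covered normalization, test, filters, the rule, depth, matched comparison cells, clear barcodes, shared cell barcodes and each library left out. Cells with 1 or 2 of the genes were in no test. Results for 1 gene are not reported here.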

Additional observations from a re-analysis of the deposited data

Results flagged for a closer look

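Of 117 values checked for 1 library standing apart from the other 3, 6 did, and chance gives about 1 in 20. Each of the first 5 is a log2 ratio of CPM + 1, members over cells with none of the 4 genes, within a library. CXCL2 was at 3.04 in library 4, below the other libraries. TNF was at −1.43 in library 4, where its members had no UMI, and above 0 in the others. IRAK2 was at 0.45 in library 4, below the others. S100A7 was at −2.75 in library 2, a smaller fall than elsewhere. PTGES was at −1.70 in library 3, a larger fall than elsewhere. The sixth is the median SBO UMIs of members, 648 in library 3, below the other libraries; the comparison cells of that library were lowest as well, at 261.

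RSAD2 moved in opposite directions in the pools. Its mean log2 ratio of CPM + 1 was −1.11 in libraries 1 and 2, both below 0, and 2.11 in libraries 3 and 4, both above 0. The difference between the pools was not tested.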

How the results depend on the processing

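The share of members, 0.727%, was 0.212% with 2 UMIs asked of 3 genes and likewise with all 4 genes, 3.01% with 2 genes, 0.298% after thinning, 0.692% without shared cell barcodes and 0.645% to 0.825% with a library left out. Against cells with none of the genes, the 1357 higher and 1987 lower genes became 634 and 947 (2 UMIs), 697 and 1019 (all 4 genes), 346 and 564 (thinned), 593 and 659 (libraries 1 and 2), 775 and 1062 (libraries 3 and 4), and 1031 to 1159 and 1437 to 1690 with a library left out; fewer cells or UMIs entered each of these. Higher genes were 2048 with 2 genes. Lower genes were 1066 by DESeq2 (1271 higher, so that 54.4% of calls were higher against 40.6%), 1243 with clear barcodes, and 1237, 1254 and 1216 with comparison cells matched on UMIs, barcode or both; the cause of the DESeq2 difference was not tested. Without the library block, which pairs both sums of a library, there were 1360 higher and 1822 lower. RSAD2 reversed, to −0.42 with all 4 genes, −1.01 in libraries 1 and 2, −0.64 without high epithelial sums and −0.28 without shared cell barcodes. Against SBO05 cells, 618 higher and 259 lower became 287 and 51 by DESeq2; lower were 445 with clear barcodes, 393 with no low-count filter and 156 without the block, and no library could be left out because 1 would remain. With a library left out, the mean difference in medians, members minus comparison cells, was −3600.5 to −2539.7 UMIs, −419 to −326.5 genes, −0.219 to −0.112 percentage points of mitochondrial UMIs and 802 to 1115 SBO UMIs. Of the other named-gene values 2296 and 168 kept direction and call in the first and second comparison, and 65 kept direction but lost the call. Higher genes ranged from 15 to 18 in the matrix list, 10 to 15 in the mesenchymal, 9 to 15 in the NF-κB and 6 to 11 in the chemokine list, and lower genes from 14 to 17 in the epithelial list. Library 3, with 21 members, limits what scarce genes show.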
